A study of Mus musculus with 6 samples.

Results

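The immediate early transcription factor genes described here are 10 genes, Fos, Fosb, Fosl2, Jun, Junb, Jund, Atf3, Egr1, Nr4a1 and Myc, out of 21887 protein-coding genes on the mouse chromosomes. They were chosen by name, and their data are the H3K27ac peaks that overlap each RefSeq gene body with 20 kb on either side, in coordinates of mm10. H3K27ac, acetylation of lysine 27 on histone H3 that marks active promoters and enhancers, was mapped by CUT&RUN, in which an antibody directs a nuclease to cut out the marked chromatin. The material was left ventricle from mice of the FVB strain, 8 to 12 weeks of age, whose nuclei were sorted with an antibody to PCM-1, a protein on the nuclear surface of cardiomyocytes. The 3 HOM libraries carry a CRISPR deletion of Nppa-Nppb, the neighbouring genes of the natriuretic peptides ANP and BNP, and the 3 WT libraries do not. The ends of the deletion are not given in the labels. The breeding note also names Myh6-MerCreMer, nTnG and Sun1/sfGFP mice, without saying that the animals used here carried these alleles. The labels do not say whether each library of a group is from a mouse of its own, so a p-value measures only the spread between these libraries, which may be technical.

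Immediate early genes are switched on within minutes of a stimulus, such as a growth factor, a hormone or stretch, because the factors that read the signal are already present in the cell. Fos and Jun proteins pair to form AP-1, a factor that binds promoters and enhancers of later genes, and Atf3, Egr1, Nr4a1 and Myc encode DNA-binding factors of other families. In the heart these genes are known for their rapid response to pressure load and to hypertrophic hormones.

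Peaks were called by the authors for each library, and the lists differ widely in length. They hold 48102, 1462 and 15184 peaks in HOM replicates 1, 2 and 3, and 21340, 72362 and 106605 peaks in WT replicates 1, 2 and 3. HOM replicate 2 stands apart, with 0.296 Mb of the genome under peaks against 4.54 to 55.7 Mb in the other 5 libraries and a median peak width of 84 bp against 232 to 291 bp. Its list has no peak in the window of any of the 10 genes, and in the same list 3.14% of all protein-coding genes have a peak in such a window. Each result is therefore given with and without it. Read counts are not part of the lists, and library depth is therefore unknown. Replicate 1 of each genotype has 112 (HOM) and 111 (WT) peaks in the first 80 Mb of chromosome Y, where the other libraries have 1 to 5. Values are repeated below within this pair and within the other libraries. Whether the sex of the mice, a batch or something else sets the pair apart was not tested. For marker genes of cell types, only peaks on the gene body with 1 kb on each side were counted, a narrower window than that of the 10 genes. By this count, all 8 cardiomyocyte marker genes examined had a peak in every library other than HOM replicate 2, and all 7 fibroblast markers had none in any library. The endothelial genes Cdh5 and Tie1 and the immune gene Ptprc had none either, while 1, 0 and 1 of 6 endothelial markers had a peak in HOM replicates 1 to 3 against 1, 2 and 4 in WT replicates 1 to 3. Of 5 immune markers 1, 0 and 0 had one in HOM and 0, 1 and 1 in WT, and of 5 smooth muscle and pericyte markers 2, 0 and 2 in HOM and 2, 3 and 4 in WT. Abcc9 and Cspg4 were among the latter in every library other than HOM replicate 2. Abcc9 alone had 16, 0 and 2 peaks in HOM and 7, 21 and 32 in WT. Whether its peaks come from such cells or from cardiomyocytes was not tested. The part of cells other than cardiomyocytes in the results was not tested. In sorted nuclei measured in bulk, fewer marked nuclei and less mark per nucleus cannot be told apart.

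The promoter sequences below show what lies just upstream of 5 of the genes, 4 that hold the motif marked below and had a peak on some of these bases in at least 1 library, and Jund, whose start was covered most often. They come from RefSeq (GRCm38.p6), run 5′ to 3′ on the strand of the gene and end at the base before the annotated start. The capitals mark TGACG, the core of the cAMP response element, or its reverse complement CGTCA. The intervals are chr12:85473640-85473889 (plus strand) for Fos, chr7:19310046-19310295 (minus) for Fosb, chr8:84978749-84978998 (minus) for Junb, chr8:70697489-70697738 (plus) for Jund and chr15:101266596-101266845 (plus) for Nr4a1.
Fos: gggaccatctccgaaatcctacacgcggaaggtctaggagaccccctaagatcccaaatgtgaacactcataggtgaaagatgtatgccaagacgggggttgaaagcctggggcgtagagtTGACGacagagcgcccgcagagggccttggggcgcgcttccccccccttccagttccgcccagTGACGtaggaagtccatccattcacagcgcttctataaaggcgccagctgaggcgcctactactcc
Fosb: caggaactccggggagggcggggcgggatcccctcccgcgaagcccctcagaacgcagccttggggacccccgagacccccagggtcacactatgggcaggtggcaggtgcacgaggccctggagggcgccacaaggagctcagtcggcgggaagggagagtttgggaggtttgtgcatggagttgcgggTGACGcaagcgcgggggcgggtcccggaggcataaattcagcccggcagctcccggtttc
Junb: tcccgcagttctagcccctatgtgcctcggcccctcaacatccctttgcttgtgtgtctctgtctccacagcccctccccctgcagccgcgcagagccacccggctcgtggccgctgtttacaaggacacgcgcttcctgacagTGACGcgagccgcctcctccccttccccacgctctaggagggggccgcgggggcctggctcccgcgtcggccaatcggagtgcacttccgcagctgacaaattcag
Jund: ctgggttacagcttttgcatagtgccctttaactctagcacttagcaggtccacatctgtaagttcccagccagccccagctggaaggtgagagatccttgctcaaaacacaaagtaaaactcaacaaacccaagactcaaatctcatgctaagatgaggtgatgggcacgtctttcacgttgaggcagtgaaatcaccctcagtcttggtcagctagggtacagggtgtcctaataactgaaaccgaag
Nr4a1: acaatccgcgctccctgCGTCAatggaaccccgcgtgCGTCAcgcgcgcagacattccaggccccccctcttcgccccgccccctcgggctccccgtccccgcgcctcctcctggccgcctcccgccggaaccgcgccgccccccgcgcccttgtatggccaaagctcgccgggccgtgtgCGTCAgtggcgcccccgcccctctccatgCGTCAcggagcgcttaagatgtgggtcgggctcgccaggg
Of the 8 members with a RefSeq promoter entry, 5 hold this core in these 250 bases, against 17.8% of all 32851 entries. Nr4a1 holds 4 copies, all as CGTCA, which 0.137% of entries match or exceed. Fos holds 2 copies, at -129 to -125 and at -66 to -62 from the start, Fosb 1 at -60 to -56 and Junb 1 at -106 to -102. Atf3 has 1 on the minus strand at -7 to -3. Jund, Jun and Fosl2 hold none of these letters in the window. The Egr1-type site GCGGGGGCG lies in 3 of the 8, Fosl2 at -79 to -71, Fosb at -50 to -42 and, on the minus strand, Nr4a1 at -60 to -52, against 2.57% of all entries. The TATA box TATAAA was found in Fos alone among the 8, at -33 to -28, against 12.4% of entries. On both strands, TGACGTCA (1.55% of entries), the AP-1 site TGANTCA (6.75%), the CArG box of serum response factor (1.47%), the ETS core CCGGAAG (6.91%) and the E-box CACGTG (6.02%) were not found in any of the 8 windows. TGACG is part of TGACGTCA, so matches to the longer site would count for both. These matches describe letters and not binding.

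Most of these genes carried the mark in cardiomyocyte nuclei of both genotypes. A peak lay in the window of 10, 0 and 7 of the 10 genes in HOM replicates 1, 2 and 3, and of 9, 10 and 10 in WT replicates 1, 2 and 3. Of all protein-coding genes, 47.1%, 3.14% and 25.2% had one in the HOM libraries and 31.7%, 57.4% and 66.1% in the WT libraries. Because the 10 gene bodies are short, 1840 to 21369 bp, the same shares were taken over gene bodies no longer than the longest of them, and were 39.5%, 2.03% and 19.6% in HOM and 25.6%, 48.9% and 57.5% in WT. Fos, Fosl2, Jun, Junb, Jund, Nr4a1 and Myc, 7 of the 10, had a peak in HOM replicates 1 and 3 and in all 3 WT libraries, against 20.8% of all protein-coding genes and 15.5% of those no longer than the longest member. None of the 10 had a peak in all 6 libraries (2.63% of all genes), in every WT library but none of the HOM libraries (1.29%), or in no WT library and at least 2 HOM libraries (0.00457%). Fosb and Egr1 lacked one in HOM replicate 3, and Atf3 lacked one in HOM replicate 3 and in WT replicate 1. The windows held 65, 0 and 16 peaks in the HOM libraries and 32, 90 and 113 in the WT libraries, so peak numbers followed the length of the list. To set lists of unequal length on one scale, the length under peaks in a window is given below as a share, in bp per Mb of the genome under peaks in that library. Summed over the 10 genes this share was 1251, 0 and 1021 bp per Mb in HOM and 1307, 1212 and 1103 bp per Mb in WT. The scale does not remove list length. Over all protein-coding genes with a peak, the median share was 48.2, 260 and 97.1 bp per Mb in HOM and 76.1, 40.5 and 38.3 bp per Mb in WT. It was highest in the shortest list and lowest in the longest. The part of list length in the shares and differences below was not tested.

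**Figure D1:**
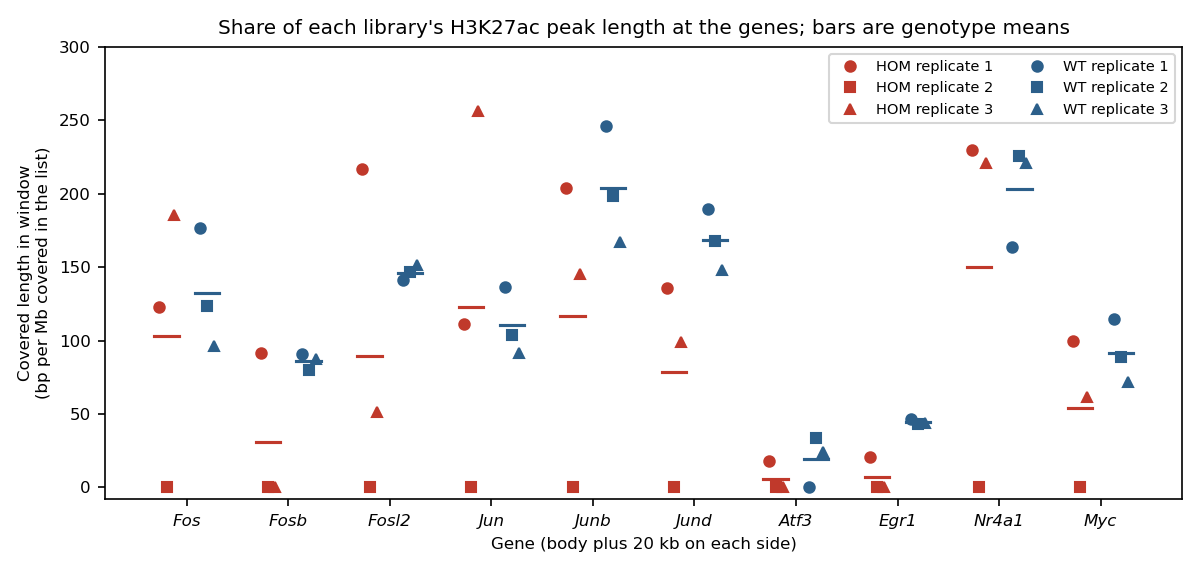
Share of the length under peaks (bp per Mb of the genome under peaks) in the window of each of the 10 genes, 1 point per library, HOM left of WT, with the mean of each group as a bar. HOM replicate 2 is at 0 for every gene, and in Jund and Egr1 the HOM points lie below all 3 WT points.

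Fos encodes the founding Fos subunit of AP-1, which binds DNA only as a partner of a Jun protein. It had 7, 0 and 2 peaks in HOM replicates 1, 2 and 3 against 4, 11 and 12 in WT replicates 1, 2 and 3. The share was 123, 0 and 186 bp per Mb in HOM and 177, 123 and 96.4 bp per Mb in WT. HOM replicate 1 lay inside the WT range, HOM replicate 3 just above it and HOM replicate 2 below it. The means were 103 ± 94.5 bp per Mb in HOM and 132 ± 41.0 bp per Mb in WT (SD, n = 3 each), a difference of -29.2 (two-sided exact permutation p = 0.8), which without HOM replicate 2 was 22.2 (exact p = 0.6). These 5 lists were also limited to 15184 peaks from the top by fold, as many as HOM replicate 3 has. Peaks tied in fold at the cut were taken in chromosome order. The share was then 177 and 186 bp per Mb in HOM replicates 1 and 3 and 126, 70.6 and 110 bp per Mb in WT. The groups then no longer overlapped, with HOM above WT (difference 79.4, exact p = 0.1, the smallest that 2 libraries against 3 can give). Of the libraries left out 1 at a time, only HOM replicate 2 changed the sign. Within the replicate 1 pair, which lacks that library, the difference was -53.9. Matching the lists enlarged the difference above 0 that was found without HOM replicate 2. Not a single peak touched the gene body of Fos in any library. The regions with a peak in all 5 libraries other than HOM replicate 2 lay upstream and downstream. The upstream one is chr12:85471506-85473504, at -2384 to -386 bp from the start, and the downstream one chr12:85485318-85485993. Further upstream, a region at chr12:85454619-85455158 had peaks in HOM replicate 1 and all 3 WT libraries, and other regions had peaks in fewer libraries. Within the downstream region, 307 bp at chr12:85485617-85485923, starting 11727 bp past the start and 8343 bp past the end of the gene, were covered in all 5, the only such stretch among the Fos subunit genes. The nearer upstream region adjoins the promoter printed above, of which peaks covered 119 bp in WT replicate 2 and 190 bp in WT replicate 3.

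Fosb encodes a Fos subunit known for a stable truncated form, and its window also takes in part of the neighbouring gene Rtn2. It had 5, 0 and 0 peaks in HOM against 2, 9 and 11 in WT, and a share of 91.7, 0 and 0 bp per Mb in HOM against 90.9, 80.0 and 87.7 bp per Mb in WT. HOM replicate 1 lay just above the 3 WT libraries, which were close together, and the other 2 HOM libraries had nothing. The difference was -55.6 bp per Mb (exact p = 0.4), and -40.3 without HOM replicate 2 (exact p = 0.4). The strongest peak of the Fosb window, by the authors' fold, ranked 867 of 48102 in HOM replicate 1, at chr7:19308224-19308581, and 1128 of 72362 in WT replicate 2, at chr7:19308176-19308589. These peaks lie at nearly the same bases inside the gene, 1464 bp and 1456 bp past the start at their near ends, and 302 bp there were covered in 4 libraries, HOM replicate 1 and all 3 WT. Lists of different length give no comparison between such ranks.

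Fosl2, which encodes the Fos-related subunit Fra-2, had 10, 0 and 1 peaks in HOM against 4, 9 and 12 in WT. The share was 217, 0 and 51.3 bp per Mb in HOM, and 141, 146 and 151 bp per Mb in WT. The WT libraries lay close together, while the HOM libraries lay on both sides of them, so the groups overlapped. The difference was -56.8 bp per Mb (exact p = 0.4), and -12.1 without HOM replicate 2 (exact p = 0.8). The overlap came from HOM replicate 1, without which the difference was -121 (exact p = 0.1, the smallest possible). Unlike Fos, Fosl2 carried most of its peaks on the gene body, 8 of 10 in HOM replicate 1, 1 of 1 in HOM replicate 3, and 4 of 4, 6 of 9 and 9 of 12 in WT replicates 1, 2 and 3. The only peak of HOM replicate 3, 233 bp at chr5:32136404-32136636, spanned the annotated start. The start itself was otherwise covered only in WT replicate 3, and a region 539 to 3356 bp past it had peaks in HOM replicate 1 and all 3 WT libraries.

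**Figure D2:**
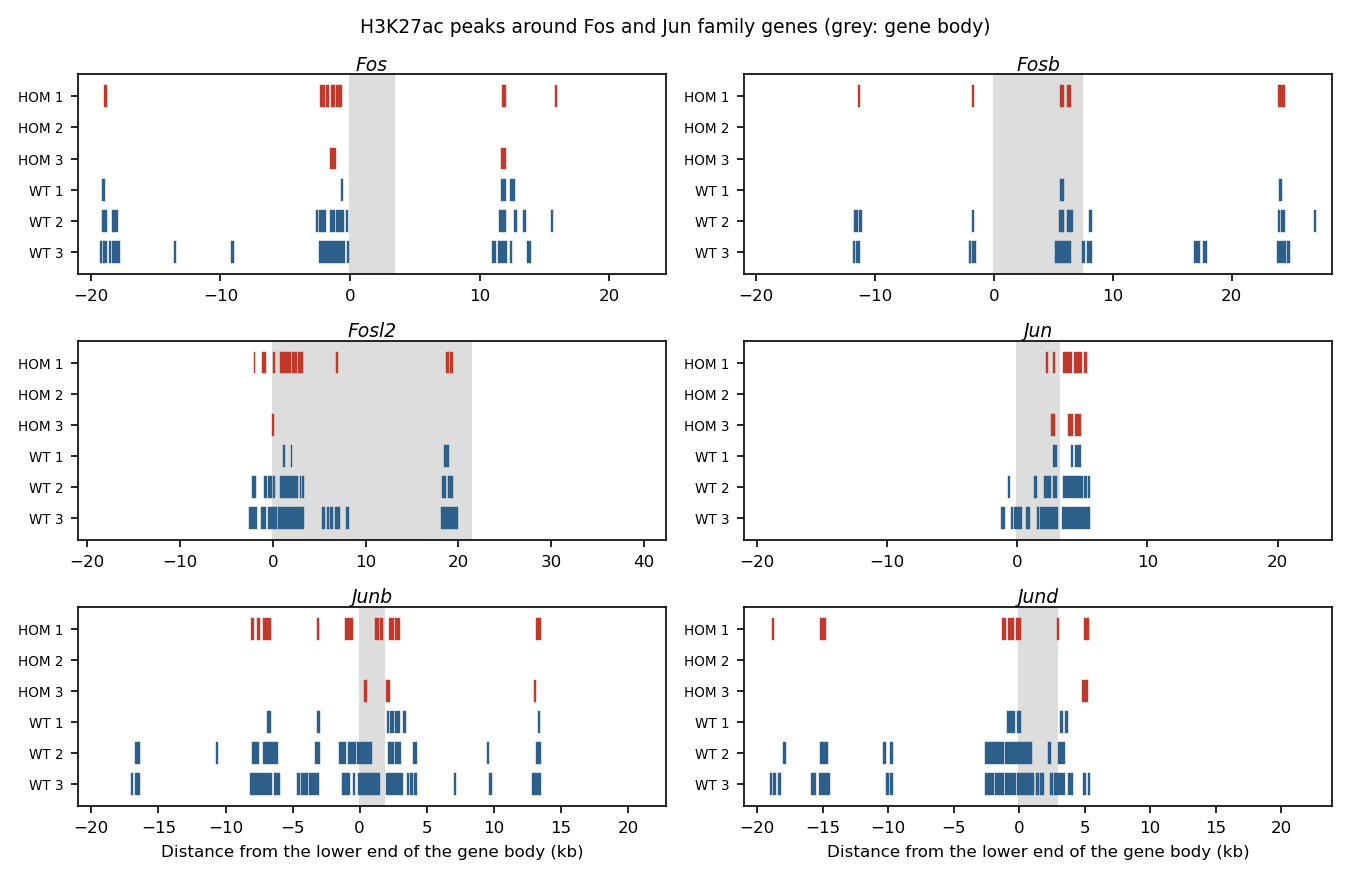
Peaks of each library (HOM rows above WT rows) in the windows of the Fos and Jun subunit genes, against distance in kb from the lower coordinate of the gene body (grey), so that upstream lies to the right for Fosb, Jun and Junb. Peaks recur just upstream of Fos, Jun and Junb, the gene body of Fos is free of peaks, and the row of HOM replicate 2 is empty.

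Jun encodes c-Jun, a Jun subunit that can also bind DNA as a pair with itself. It had 5, 0 and 3 peaks in HOM against 3, 7 and 7 in WT. The share was 111, 0 and 257 bp per Mb in HOM and 137, 104 and 91.8 bp per Mb in WT. HOM replicate 3 gave the highest value of the 6 and HOM replicate 2 the lowest, with HOM replicate 1 inside the WT range. Jun was the only member with a higher mean in HOM over all 6 libraries, 123 ± 129 bp per Mb against 111 ± 23.2 bp per Mb in WT (SD, n = 3 each; difference 11.8, exact p = 0.8). Without HOM replicate 2 the difference was 73.1 (exact p = 0.2), and without HOM replicate 3 it was -55.2 (exact p = 0.4), so 1 library decided the direction. Jun also held the strongest peak of any member relative to its list, rank 284 of 106605 in WT replicate 3, with a fold of 16.1 over 2197 bp at chr4:95052462-95054658. That peak ends 240 bp upstream of the start. The strongest Jun peak lay in this same upstream region in the other 4 libraries with peaks, at rank 3807 of 48102 and 2596 of 15184 in HOM replicates 1 and 3, and at rank 1819 of 21340 and 2756 of 72362 in WT replicates 1 and 2. Bases covered in all 5 libraries formed 3 stretches, of 424 bp and 132 bp upstream and of 133 bp inside the gene, 283 to 415 bp past the start.

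Junb encodes a Jun subunit that is a weaker activator than c-Jun at many sites. Its gene body, 1840 bp, is the shortest of the 10, and its window is the most crowded, with 27853 of 41840 bp inside other genes. Peaks numbered 10, 0 and 3 in HOM and 7, 14 and 17 in WT. The share was 204, 0 and 145 bp per Mb in HOM against 246, 199 and 167 bp per Mb in WT. HOM replicate 1 lay within the WT range and the other 2 HOM libraries below it. The difference was -87.7 bp per Mb (exact p = 0.3), and -29.5 without HOM replicate 2 (exact p = 0.5). Some of this length belongs to neighbours, with peaks on Prdx2, Rnaseh2a and Hook2. With the bases of other genes left out, a choice made after the data were seen, the share was 106, 0 and 105 bp per Mb in HOM and 147, 108 and 83.3 bp per Mb in WT. Both HOM libraries with peaks then lay inside the WT range. A region upstream of the start, at chr8:84978876-84980115, and one on Hook2, at chr8:84989748-84990427, had peaks in all 5 libraries other than HOM replicate 2, with 40 bp of the upstream region covered in each of them. The printed Junb promoter was covered over 118 bp in HOM replicate 3, and over 51 bp and 123 bp in WT replicates 1 and 3.

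Jund, which encodes the Jun subunit that many resting cells make constantly, had 7, 0 and 1 peaks in HOM against 4, 9 and 18 in WT. The share was 136, 0 and 99.3 bp per Mb in HOM and 189, 168 and 148 bp per Mb in WT. All 3 HOM libraries lay below all 3 WT libraries, also with HOM replicate 2 set aside. The means were 78.3 ± 70.2 bp per Mb in HOM and 169 ± 20.6 bp per Mb in WT (SD, n = 3 each), a difference of -90.2, and exact p = 0.1 is the smallest p that 3 libraries against 3 can give. Adjusted over the 14818 protein-coding genes with a peak in any library by the Benjamini-Hochberg method, this permutation p was 0.806, and the difference did not pass a threshold of 0.05. Without HOM replicate 2 the difference was -51.1 (exact p = 0.1, again the smallest possible; adjusted p = 0.977). Within the pair of replicate 1 libraries it was -53.7, with no test possible, and within the other 4 libraries -109 (exact p = 0.333). When the 5 lists were limited to 15184 peaks in the same way as for Fos, the groups overlapped. The share was 0 and 99.3 bp per Mb in HOM replicates 1 and 3 against 241, 78.5 and 89.1 bp per Mb in WT (exact p = 0.6). The only HOM replicate 3 peak of the window, 451 bp at chr8:70702527-70702977, lies on the neighbouring gene Iqcn. Without the bases of other genes the share was 115, 0 and 0 bp per Mb in HOM and 172, 168 and 133 bp per Mb in WT.

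The start of Jund was the one most often covered. Peaks spanned it in HOM replicate 1 and in all 3 WT libraries, and 285 bp at chr8:70697586-70697870 were covered in those 4. Of the 250 bases printed above, 215 lay under a peak in HOM replicate 1 and 189, 250 and 189 in WT replicates 1, 2 and 3. Its promoter window has the lowest G and C content of the 8 members with an entry, 47.6%, against 74.4% in Nr4a1, the highest.

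Atf3 encodes a stress-induced factor that pairs with Jun proteins and often represses, and it carried the least mark of the 10. It had 1, 0 and 0 peaks in HOM against 0, 3 and 4 in WT. The share was 17.6, 0 and 0 bp per Mb in HOM and 0, 33.4 and 23.8 bp per Mb in WT, so both groups held libraries without a peak and overlapped. The difference was -13.2 bp per Mb (exact p = 0.4), and -10.2 without HOM replicate 2 (exact p = 0.5). All peaks lay on the first part of the gene or just upstream, and the single HOM peak, 303 bp at chr1:191184154-191184456, overlapped upstream peaks of WT replicates 2 and 3. In WT replicate 2 the upstream peak ranked 3648 of 72362, while the HOM replicate 1 peak ranked 29688 of 48102.

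Egr1 encodes a zinc finger factor induced by many growth signals through serum response factor. It had 1, 0 and 0 peaks in HOM against 1, 5 and 6 in WT. The share was 20.5, 0 and 0 bp per Mb in HOM and 46.8, 43.3 and 44.0 bp per Mb in WT. The WT libraries lay within 3.45 bp per Mb of each other, and every HOM library lay below them. The means were 6.84 ± 11.8 bp per Mb in HOM and 44.7 ± 1.82 bp per Mb in WT (SD, n = 3 each), a difference of -37.9 (exact p = 0.1, the smallest possible; permutation p adjusted over all genes 0.806). Without HOM replicate 2 it was -34.4 (exact p = 0.1; adjusted 0.977). Within the replicate 1 pair it was -26.3, with no test, and within the other 4 libraries -43.7 (exact p = 0.333). At equal list length the HOM value was 0 in replicates 1 and 3 against 59.4, 0 and 47.1 bp per Mb in WT, and the groups overlapped (exact p = 0.4). The WT replicate 1 value there rests on a peak tied in fold at the cut. In HOM replicate 1 and WT replicate 1 each value rests on 1 peak, of 353 bp and of 313 bp, which overlap each other about 1 kb before the low end of the gene body, and 170 bp there were covered in these and the other 2 WT libraries. The wider of these 2 peaks gave the lower share, as these lengths are divided by 17.2 Mb under peaks in HOM replicate 1 and 6.69 Mb in WT replicate 1. As in Fos, the gene body held no peak in any library.

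Nr4a1, which encodes the orphan nuclear receptor Nur77, carried the most peaks in total, in a window of 60.9 kb that is longer than most of the others. They numbered 12, 0 and 5 in HOM against 5, 19 and 22 in WT, where Junb had more in WT replicate 1. The share was 230, 0 and 221 bp per Mb in HOM and 164, 226 and 221 bp per Mb in WT. The libraries other than HOM replicate 2 and WT replicate 1 lay within 8.95 bp per Mb of each other. The difference was -53.2 bp per Mb (exact p = 0.8), and 22.0 without HOM replicate 2 (exact p = 0.7), so that library decided the direction. The widest peak of any member, 2832 bp at chr15:101240088-101242919 in WT replicate 3, ended 10983 bp before the gene body. The region it marks and another at chr15:101283383-101283928, past the far end of the gene, had a peak in all 5 libraries other than HOM replicate 2, with 81 bp and 161 bp covered in each of the 5. The start with the 4 core motifs printed above was covered in WT replicate 3 alone, which reached 205 of the 250 bases. That start lies inside the gene body, which opens 12944 bp further upstream.

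Myc encodes a factor that drives growth and ribosome production. It had 7, 0 and 1 peaks in HOM against 2, 4 and 4 in WT, and was the one gene of the 10 with more peaks in HOM replicate 1 than in any WT library. The share was 99.5, 0 and 61.9 bp per Mb in HOM and 115, 88.6 and 71.9 bp per Mb in WT, with HOM replicate 1 inside the WT range and HOM replicate 3 below it. The difference was -38.0 bp per Mb (exact p = 0.4), and -11.1 without HOM replicate 2 (exact p = 0.7). The peaks of HOM replicate 1 were narrow, with a median of 214 bp, against 384.5 bp, 676 bp and 979 bp in WT replicates 1, 2 and 3. A region of 1745 bp at chr15:61983780-61985524, across the low end of the gene body, had a peak in all 5 libraries other than HOM replicate 2, and its peak ranked 1471 of 15184 in HOM replicate 3.

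**Figure D3:**
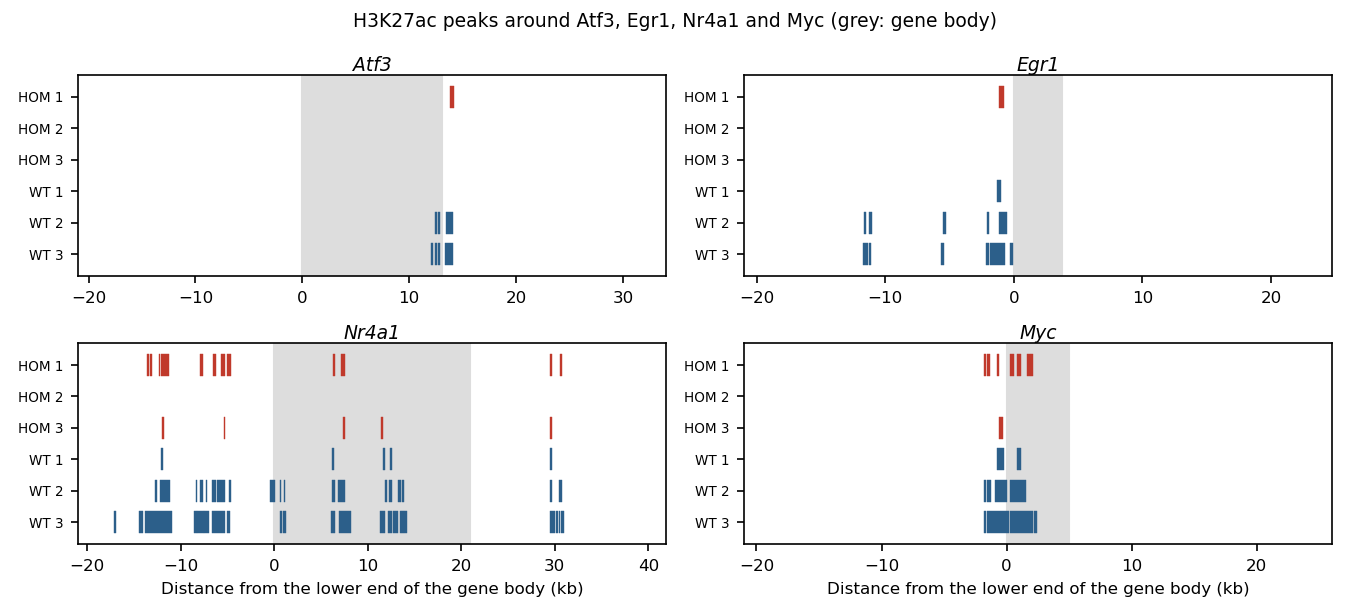
Peaks of each library (HOM rows above WT rows) in the windows of Atf3, Egr1, Nr4a1 and Myc, against distance in kb from the lower coordinate of the gene body (grey). Nr4a1 has peaks upstream, on the first part of the gene body and past its end, Atf3 has few, and no peak falls on the gene body of Egr1.

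Jund and Egr1 were thus the 2 of 10 genes whose groups did not overlap, both with HOM below WT. Over all 14818 protein-coding genes with a peak, the groups did not overlap in this direction for 9.27%, and without HOM replicate 2 for 9.61% of 14813. Which genes separated depended on the libraries and peaks used. Without HOM replicate 1, Fosb, Fosl2, Junb and Myc also lay below WT without overlap (exact p = 0.1 each, the smallest possible). Over all protein-coding genes, 3331 then lay below WT and 189 above it, against 1374 and 38 with all 6 libraries. At equal list length, without HOM replicate 2, the genes that separated were Fosl2 and Myc, below WT, and Fos, above it, and neither Jund nor Egr1. Over all genes, 771 lay below WT and 616 above it at this length. The cut fell among peaks tied in fold, which were taken in chromosome order. Most Fosl2 peaks of WT replicate 1 were tied there and were kept. How far these calls depend on the ties was not tested. With all peaks and 6 libraries, none of the 10 genes lay above WT in every HOM library, against 0.256% of all genes, and 4.48% without HOM replicate 2. The lowest adjusted permutation p over all genes was 0.806, and 0 genes had an unadjusted exact p under 0.05, which this design cannot reach. The median difference was -45.6 bp per Mb over the 10 genes and -11.7 over all genes tested. Without HOM replicate 2 these medians were -11.6 and -5.52. The mean was lower in HOM in 9 of the 10 genes, against 87.1% of all genes, and without HOM replicate 2 in 7 of 10, against 72.6% of all genes. A lower mean in HOM was thus also the rule over the genome.

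Levels can be set side by side between genes per kb of window. By the median over the 5 libraries other than HOM replicate 2, in bp per Mb and per kb of window, the order was Junb 4.75, Nr4a1 3.63, Jund 3.46, Fos 2.84, Jun 2.58, Fosl2 2.39, Myc 1.97, Fosb 1.85, Egr1 0.99 and Atf3 0.33. The range over libraries of each gene overlapped that of the next, so no 2 neighbours in this order differed beyond their spread. Junb ranged from 3.47 to 5.89 and Atf3 from 0 to 0.63 on this scale, and these ends of the order did not overlap.

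The peaks of these genes were not strong throughout. For each library, a peak's place in its own list by fold is given as a percentile, with 100 the strongest, and tied peaks share a place. The strongest peak of a member had a median percentile of 85.5 in HOM replicate 1 and 76.8 in HOM replicate 3, and 71.5, 90.9 and 95.0 in WT replicates 1, 2 and 3. Over all protein-coding genes with a peak these medians were 72.6 and 61.6 in HOM replicates 1 and 3, and 71.5, 79.9 and 86.6 in WT. The members with a peak thus stood above the median of all genes in 4 libraries and level with it in WT replicate 1. The strongest of many peaks tends to rank higher than the strongest of few. The 10 members had a median of 7 and 1 peaks in HOM replicates 1 and 3 and 3.5, 9 and 11.5 in WT. All genes with a peak had medians of 3 and 2 in HOM and 2, 4 and 6 in WT. The part of peak number in these percentiles was not tested. Over all their peaks the median was 46.6 and 40.4 in HOM replicates 1 and 3 and 55.3, 57.6 and 59.0 in WT, near the middle of each list.

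**Figure D4:**
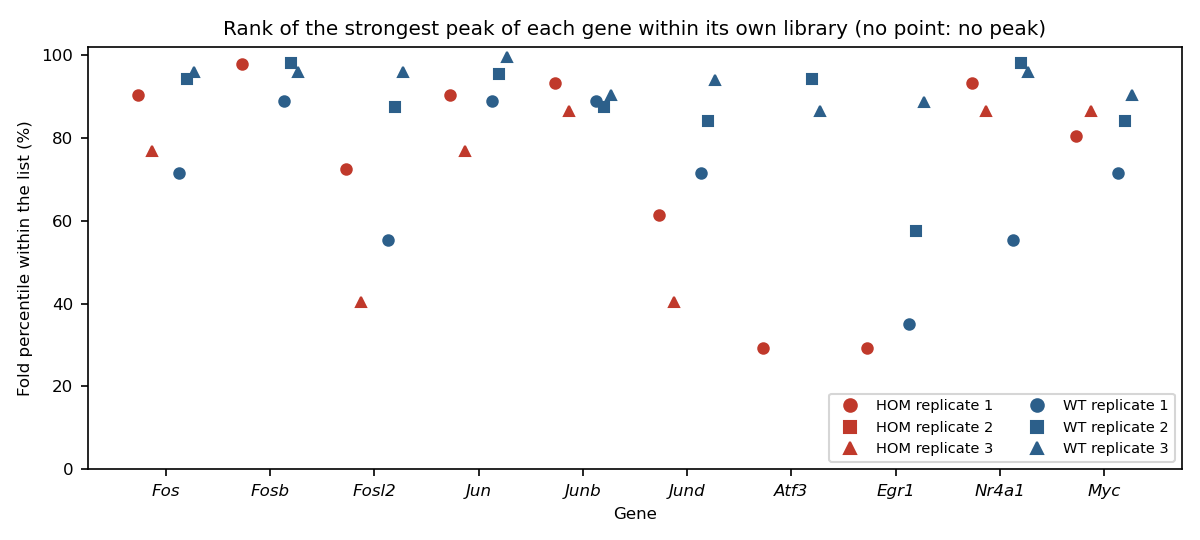
Within-list percentile of fold (100 is the strongest) of the strongest peak in each gene's window, 1 point per library, HOM left of WT, without HOM replicate 2, which has no peak there. Jun reaches 99.7 in WT replicate 3 and Fosb 97.8 in HOM replicate 1, while Egr1 and Atf3 lie at 29.2 in HOM replicate 1.

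Merged over libraries, the peaks formed 116 regions. Of these, 54 came from 1 library, 39 of them from WT replicate 3, the longest list, and 9 had a peak in all 5 libraries other than HOM replicate 2. The 9 are 2 each at Fos, Jun, Junb and Nr4a1 and 1 at Myc. Regions with a peak in any HOM library numbered 42, and 40 of these also had one in WT. Another 74 had peaks in WT only, of which 2 were in all 3 WT libraries. Of all member peaks, 32.3% and 31.3% in HOM replicates 1 and 3 and 34.4%, 31.1% and 32.7% in WT replicates 1, 2 and 3, touched the body of the member gene.

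Around the starts of the 8 members with an entry, coverage was taken within 1 kb of the start and at the start base. The wider window includes the start base, so it cannot be covered less often. A peak came within 1 kb of the start in 7, 0 and 3 of the 8 in HOM and in 5, 8 and 8 in WT, against 18.5%, 0.335% and 6.83% of all entries in HOM and 9.72%, 25.9% and 34.0% in WT. The start base itself was covered in 1, 0 and 1 of the 8 in HOM and in 1, 1 and 3 in WT, against 2.49%, 0.0213% and 0.767% of all entries in HOM and 0.858%, 4.84% and 10.8% in WT. At single positions within 3 kb, the most members covered were 5 and 3 in HOM replicates 1 and 3, and 3, 7 and 8 in WT replicates 1, 2 and 3. Each of these positions lay upstream of the start. The highest of many positions tends to exceed any 1 position, and this has no test. Within 3 kb, the length under peaks downstream of the start divided by that upstream was 0.806 and 0.382 in HOM replicates 1 and 3 and 0.382, 0.826 and 0.923 in WT. Over all entries this ratio was 1.25 and 1.24 in HOM replicates 1 and 3 and 1.26, 1.22 and 1.23 in WT. Summed over the 8 members, more length lay upstream than downstream in each of the 5 libraries with peaks, but this rested on Fos, which has no peak on its body. Without Fos the ratio was 1.07 and 0.509 in HOM replicates 1 and 3 and 0.406, 1.02 and 1.11 in WT, below 1 in HOM replicate 3 and WT replicate 1 only. This comparison was chosen after the values were seen and has no test.

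**Figure D5:**
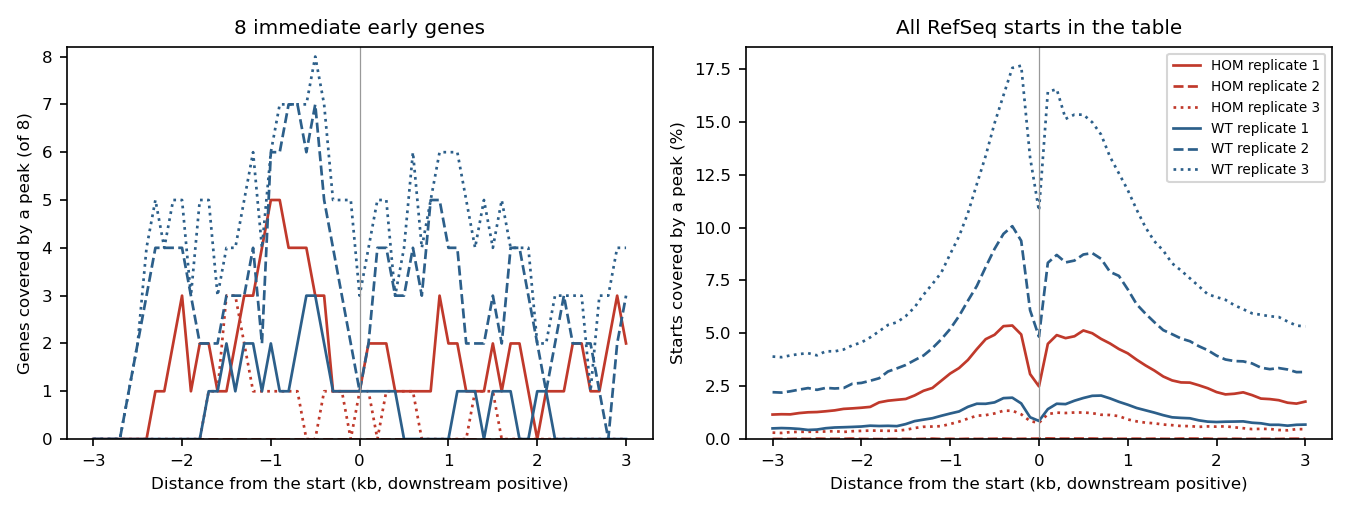
Coverage by peaks from 3 kb upstream to 3 kb downstream of the annotated start, as the number of the 8 members covered and as the percent of all RefSeq promoter entries covered, 1 line per library. The start itself is covered in 1 to 3 of 8 in the 5 libraries with peaks.

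Of 35 further genes of the same kind, listed for their role as partners, relatives, regulators or fellow early genes, 27, 3 and 17 had a peak in HOM and 21, 29 and 32 in WT. A peak in all 5 libraries other than HOM replicate 2 was found for 14 of the 35. HOM lay below WT without overlap in Ccn2, Max and Mxd1 and above it in Mafk, against 9.27% and 0.256% of all genes, and the median difference was -11.0 bp per Mb over the list. Without HOM replicate 2 the median was -3.32, with the same 3 genes below and Mafk, Klf6 and Mrtfa above, against 9.61% below and 4.48% above over all genes. Ccn2, which encodes a secreted matrix protein, had 68.3, 0 and 41.8 bp per Mb in HOM and 209, 149 and 118 bp per Mb in WT. Max, the obligate partner of Myc, had 62.8, 0 and 0 bp per Mb in HOM and 123, 119 and 190 bp per Mb in WT. Mxd1, which competes with Myc for Max, had 9.65, 0 and 0 bp per Mb in HOM and 27.3, 24.7 and 42.4 bp per Mb in WT. HOM replicate 1 gave the highest HOM value in each of these 3 genes, which are named because all their HOM values lay below all WT values. Mrtfa, a cofactor of serum response factor, had 18.0, 0 and 63.4 bp per Mb in HOM and 0, 6.96 and 10.3 bp per Mb in WT. Mafk, a small Maf protein that pairs with AP-1 relatives, had a share of 377, 484 and 645 bp per Mb in HOM and 259, 244 and 142 bp per Mb in WT. Klf6, a zinc finger factor, had 204, 193 and 441 bp per Mb in HOM and 202, 146 and 131 bp per Mb in WT. These were the 2 genes of the list with a peak in all 6 libraries, although the value of HOM replicate 2 rests on 1 peak in each. Btg2 had 477, 0 and 666 bp per Mb in HOM and 535, 358 and 261 bp per Mb in WT. Dusp1, a phosphatase that switches off MAP kinases, had 424, 0 and 557 bp per Mb in HOM and 503, 388 and 294 bp per Mb in WT. Ier3 had 428, 0 and 548 bp per Mb in HOM and 494, 322 and 261 bp per Mb in WT. In these 3 genes HOM replicate 3 was the highest of the 6 libraries and HOM replicate 2 had no peak. Egr4 and Batf had none in any library.

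The 3 protein-coding genes with the pattern most like the median of the 10 were Vdac2, Slf2 and Emsy, by the summed absolute difference in log2 (share + 1 bp per Mb) over the 6 libraries. These distances were 0.20, 0.49 and 0.50. Vdac2 had 119, 0 and 80.8 bp per Mb in HOM and 139, 105 and 93.3 bp per Mb in WT, beside a median of the 10 genes of 117, 0 and 78.4 bp per Mb in HOM and 139, 113 and 94.1 bp per Mb in WT.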

How the data were processed

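H3K27ac CUT&RUN peak lists of 3 HOM and 3 WT libraries were analysed. BWA, MACS2 and mm10 appear in the submitters' processing notes, and their versions are not given in the sources used here. Each library has a deposited list of its own, in which the authors' peak caller wrote a score, a fold enrichment (ratio), a −log10 p-value and a −log10 q-value beside every peak. Here these values only ranked, filtered or described the peaks of 1 list. The sample titles gave genotype and replicate number.

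Gene bodies came from RefSeq (GRCm38.p6), and all 10 members and 35 related genes matched. Peaks overlapping a body with 20 kb on each side by at least 1 bp were taken, and positions are 1-based. Covered length in the window was divided by the covered length of the library, in bp per Mb. HOM minus WT was tested with a two-sided exact permutation test over the 20 assignments of libraries, with Benjamini-Hochberg adjustment over all protein-coding genes with a peak; the smallest p is 0.1. The procedure was tested on simulated data.

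All 10 members are named. Of the related list, the 5 genes with a peak in the most libraries (ties by the mean share), those with none, and those whose groups did not overlap are named, the last chosen after their values were seen. Other genes in a window are named where a peak overlaps them. The members and lists were chosen with earlier results of these data known. Motifs were searched on both strands of the 250 bases before RefSeq starts. Python 3.11.15, numpy 2.4.6, pandas 2.3.3 and matplotlib 3.10.9 were used. Alternatives were other windows, stricter peaks, lists of equal length, other scalings, each library left out and a replicate block. In lists cut to a set number of peaks, ties in fold at the cut were settled by −log10 p, then by chromosome name and position.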

Additional observations from a re-analysis of the deposited data

How the results depend on the processing

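The direction of HOM minus WT was held by all 10 genes with windows of 10 kb, with the gene body and 1 kb, with peaks assigned by midpoint, with the upper 50% of fold, without the bases of other genes and within the 4 libraries other than replicate 1. It reversed for Atf3 at 50 kb (25.9 bp per Mb), for Jun (-75.6) and Myc (22.1) with a −log10 q of at least 5, and for Fosb (25.2) and Jun (-150) with lists limited to 1462 peaks, where 7 genes had no peak left. It also reversed for Fos (79.4) and Junb (10.6) at 15184 peaks without HOM replicate 2, for Jun in unscaled length (-2079 bp), for Jun (-0.000486) and Myc (0.00829) in peaks per 1000, and, within replicate 1, for Fosb (0.822), Fosl2 (76.0), Jun (-25.4), Atf3 (17.6) and Nr4a1 (66.2). Without HOM replicate 2 it reversed for Fos (22.2) and Nr4a1 (22.0), and without HOM replicate 3 for Jun (-55.2). At 15184 peaks, Junb peaks of WT replicate 1 that tied in fold at the cut were left out, so its reversal may depend on the ties. Leaving out 1 library at a time, Fos ranged from -70.7 to 22.2, Jun from -55.2 to 73.1, Nr4a1 from -93.0 to 22.0, Fosb from -86.2 to -40.3, Fosl2 from -121 to -12.1, Junb from -131 to -29.5, Myc from -60.9 to -11.1, Atf3 from -22.7 to -6.03, Jund from -119 to -51.1 and Egr1 from -44.7 to -34.4 bp per Mb. The lowest values of Fosb, Fosl2, Junb and Myc came without HOM replicate 1, and their highest without HOM replicate 2, shared for Fosb with HOM replicate 3. Those of Atf3 came without WT replicates 1 and 2.

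The groups of Jund overlapped at 50 kb (p = 0.3), those of Egr1 with 1 kb (0.3) and in the upper 50% of fold (0.4), those of Jund in peaks per 1000 (0.2), and both with the q filter (0.4 and 1) and in unscaled length (0.2 each), by exact permutation tests. Unlike with all peaks at 20 kb, Fosb separated at 50 kb, Junb in the upper 50% of fold and Atf3 without WT replicate 1, all below WT.

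Genes without overlap, 1374 below and 38 above WT, numbered 887 below with 1 kb, 19 above in the upper 50% of fold, 578 and 19 with the q filter, 97 and 13 at 1462 peaks, 771 and 616 at 15184 peaks, and 818 and 0 in unscaled length. Leaving out 1 library at a time they ranged from 1424 to 5611 below and from 47 to 664 above. They passed 1.5 times the full count without HOM replicate 1 (3331 and 189), without WT replicate 1 (5611 and 175), and, above only, without HOM replicate 2 (664) and HOM replicate 3 (84). The causes were not tested.

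The labels do not say whether the replicate numbers pair the samples. Same-numbered libraries correlated at 0.00722, -0.0138 and -0.282 in their deviations from the group means, and other pairs from -0.214 to 0.341. With 3 libraries per group, whose deviations sum to 0, these values cannot decide whether the samples are paired. With the replicate block the differences are the same, -90.2 for Jund and -37.9 for Egr1, each at an exact sign-flip p of 0.25, the smallest that 3 pairs allow. Whether groups overlap does not depend on pairing, so the block could not change which genes separated. No read counts are given, so depth limits cannot be stated.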
